A study of Homo sapiens with 12 samples.

Results

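The peaks described here are m6A peaks that the peak lists of K1 cells place on a transcript other than a RefSeq mRNA. K1 is an established line of papillary thyroid cancer cells. A peak was a member when its transcript identifier did not start with NM_, the prefix of RefSeq mRNAs, and such peaks are called non-NM peaks below. Of 50501 listed peaks, 8814 were non-NM and 41687 were NM. Of the non-NM peaks, 6831 carried an Ensembl identifier (ENST) and 1983 a UCSC identifier (uc), and no other kind of identifier occurred.

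The MeRIP-seq experiment asked how m6A changes when FTO, an RNA demethylase, is knocked down. Cells of the si-NC group received a control siRNA and cells of the si-FTO group an siRNA against FTO, and all libraries came from the same cell line. Each group had 3 IP libraries, made from fragments captured with an antibody against m6A, and 3 input libraries without capture. The authors deposited 1 list of peaks over input for each IP library, with hg19 positions. Whether the 3 libraries of a group came from separate cultures is not stated, so the p-values refer to the spread among these libraries and that spread may be technical. Knockdown was not checked here, since peaks carry no expression level.

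Of the siRNAs against FTO that the study lists, both are shown because they define the si-FTO group, and no source used here says which of them a given library received. The capitals mark the sequence before the final tt that both share.
si-FTO-1: TCACCAAGGAGACTGCTATtt
si-FTO-2: CTAGGGTTTTGCTTCCAGAAtt

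m6A is a methyl mark on adenosines within RNA. A writer complex with METTL3 and METTL14 at its core places it while the RNA is made, FTO and ALKBH5 can remove it, and reader proteins such as the YTH family bind it. A gene usually has several annotated transcripts, in RefSeq, Ensembl and UCSC, and the lists name 1 of them for each peak. A non-NM identifier therefore describes the annotation under which the peak was listed. It does not say that the RNA is noncoding or that the gene lacks a RefSeq mRNA.

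The lists held similar shares of non-NM peaks in both groups. There were 1455, 1496 and 1571 non-NM peaks in si-NC libraries 1, 2 and 3, and 1374, 1499 and 1419 in si-FTO libraries 1, 2 and 3. The mean number was 1507 ± 58.8 (SD, n = 3) in si-NC against 1431 ± 63.3 (SD, n = 3) in si-FTO, and the groups overlapped (two-sided exact permutation test, p = 0.3, adjusted over 4 comparisons of the groups 0.4). As a share of its list, non-NM peaks made up 17.5% ± 0.213 (SD, n = 3) in si-NC against 17.4% ± 0.266 (SD, n = 3) in si-FTO (difference -0.0361 percentage points, exact permutation test p = 0.9, adjusted p = 0.9). The smallest p that 3 libraries against 3 can give is 0.1, so no comparison of the groups here could fall below 0.05.

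**Figure D1:**
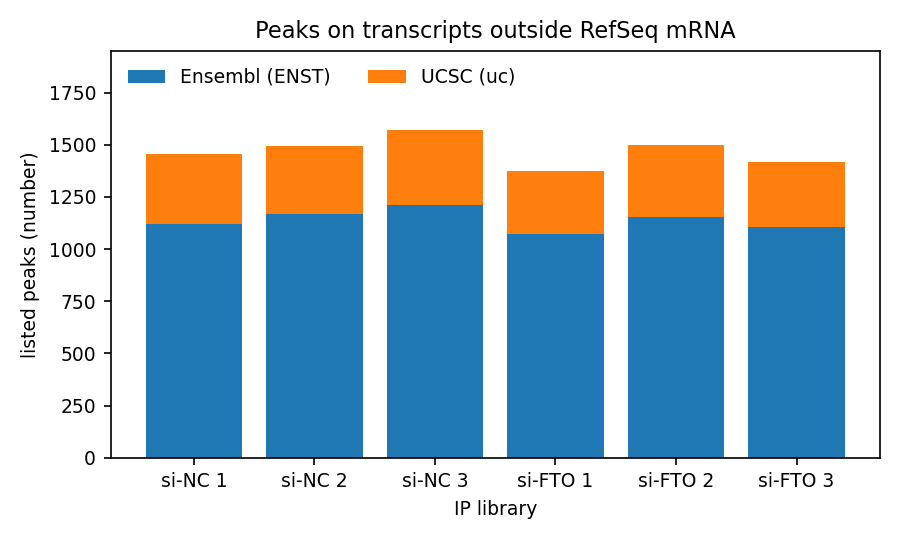
Number of listed non-NM peaks (y axis, from 0) in each IP library (x axis), with ENST peaks in blue and uc peaks in orange. The totals run from 1374 in si-FTO library 1 to 1571 in si-NC library 3, and the groups overlap.

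Whole lists held 7921 to 8999 peaks, and their read depth is unknown. Peak identifiers ran up to a number of 68972 to 98175 in si-NC lists and 56265 to 57034 in si-FTO lists, so the groups did not overlap in this value. The median FDR of non-NM peaks, the authors' estimate in percent, was 54.2%, 100% and 52.2% in si-NC against 43.5%, 50.3% and 48.0% in si-FTO. It lay above the median of NM peaks in every list. Of all peaks, 3 had an FDR of 5% or less, and 0 of these were non-NM. The smallest score in the lists was 50, equal to a p-value of 1e-05. Thyroid and epithelial genes were sparse in the lists: 3 of 11 checked had any peak (FOXE1 and KRT8 in all 6 lists, KRT7 in 1), and none had a non-NM peak. A marker without a peak may still be expressed, so the lists do not test the cell type.

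Peaks were assigned to 7623 genes in all, and 2053 of them (26.9%) had a non-NM peak. Of these 2053 genes, 1080 (52.6%) also had an NM peak in at least 1 list. In 686 genes a non-NM peak was present in all 6 lists, and in 429 in 1 list. The non-NM peaks named 2332 transcripts, 1798 genes had 1 such transcript, and no gene had more than 4. The lists gave descriptions to most genes: 7 were described as pseudogenes, 3 as antisense RNAs and 5 as uncharacterized (DKFZP547L112, LOC100133331, DKFZP434E1119, FLJ46906 and LOC388692), while 142 had no gene identifier. Most non-NM peaks carried an annotated biological process, 79.7% ± 0.304 (SD, n = 6 lists), against 88.2% ± 0.123 of NM peaks.

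Non-NM peaks were shorter than NM peaks in each list. Their median length was 603, 599 and 574 bp in si-NC libraries 1, 2 and 3 and 612, 595 and 618 bp in si-FTO. The median of NM peaks was 721, 702 and 697 bp in si-NC against 712, 684 and 693 bp in si-FTO, and the ranges did not overlap. The median difference within a list was -101 bp ± 17.9 (SD, n = 6), below 0 in 6 of 6 lists (two-sided exact paired permutation test over libraries, p = 0.0312, the smallest that 6 libraries allow, adjusted over 3 measures 0.0469). The 6 lists describe many of the same regions, so these differences are not independent of each other.

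The length difference lay among the longer peaks. The upper quartile of length was 1168 bp ± 55.0 (SD, n = 6) for non-NM and 1494 bp ± 40.0 for NM peaks, while the lower quartiles, 342 bp ± 6.69 and 325 bp ± 11.2, were close. Peaks of 3000 bp or more made up 3.81% to 4.79% of non-NM peaks and 5.68% to 6.71% of NM peaks. Peaks under 300 bp were also a smaller share of non-NM peaks, 17.6% ± 0.511 (SD, n = 6), than of NM peaks, 22.1% ± 1.20. Non-NM peaks were thus fewer at both ends of the length range.

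ENST and uc peaks differed in length. ENST medians were 580, 569 and 552 bp in si-NC against 586, 564 and 600 bp in si-FTO, whereas uc medians were 693, 705 and 648 bp in si-NC against 693, 668 and 696 bp in si-FTO. The difference from NM peaks was -126.5 bp ± 18.9 (SD, n = 6) for ENST peaks (exact paired permutation test, p = 0.0312, adjusted over 9 comparisons of classes 0.0469). For uc peaks it was -17.8 bp ± 19.8 (SD, n = 6), from -49.5 to 3 bp (exact paired permutation test, p = 0.125, adjusted p = 0.125). Within a list the median of ENST peaks minus that of uc peaks was -109 bp ± 15.3 (SD, n = 6), below 0 in 6 of 6 lists (exact paired permutation test, p = 0.0312, adjusted p = 0.0469). The shorter length of non-NM peaks thus held for those with Ensembl identifiers, and for uc peaks alone the call was lost.

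**Figure D2:**
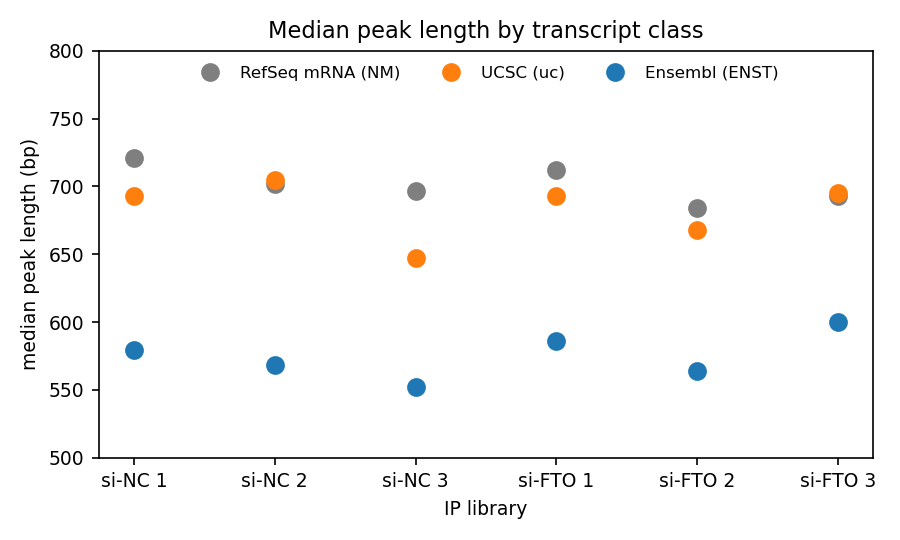
Median peak length in bp (y axis, which does not start at 0) of NM peaks (grey), uc peaks (orange) and ENST peaks (blue) in each of the 6 IP libraries (x axis). The ENST points sit at 552 to 600 bp, below every NM point (684 to 721 bp), and the uc points lie near the NM points.

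The length difference was -115 bp ± 10.4 (SD, n = 3) in si-NC lists and -88.0 bp ± 12.5 (SD, n = 3) in si-FTO lists. The groups did not overlap, and the difference between them was 26.7 bp (exact permutation test, p = 0.1, adjusted over 4 comparisons 0.2). It did not pass the threshold, which this design cannot reach.

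Genes listed with 1 non-NM and 1 NM peak allowed both kinds to be compared within a gene. There were 238 to 302 such genes in a list. The median of non-NM minus NM length was -130 bp ± 42.8 (SD, n = 6 lists; exact paired permutation test over lists, p = 0.0312), and it was the longer of the pair in 41.3% ± 2.89 of these genes. Of all non-NM peaks, 40.5% ± 0.699 belonged to a gene with an NM peak in the same list. The nearest NM peak of that gene lay a median of 12036 bp ± 935 away, and within 1000 bp for 4.30% ± 0.299. Most of these non-NM peaks thus lay more than 1000 bp from the nearest NM peak of the gene. Distances between NM peaks of a gene were not computed, so whether this differs for non-NM peaks is unknown.

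Fold enrichment, the ratio of IP over input at a peak, is not on a common scale between lists. Each peak was therefore given its percentile of fold enrichment within its own list. Non-NM and NM peaks had similar medians: the difference was 0.49, -0.68 and -1.88 percentile points in si-NC libraries 1, 2 and 3 and 1.43, 1.17 and 3.17 points in si-FTO. The mean was 0.614 ± 1.76 (SD, n = 6), above 0 in 4 of 6 lists (exact paired permutation test, p = 0.438, adjusted over 3 measures 0.438). The groups did not overlap, with si-FTO lists 2.61 points above si-NC lists (exact permutation test, p = 0.1, adjusted over 4 comparisons 0.2).

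ENST and uc peaks stood on either side of NM peaks in this measure. The difference from NM peaks was 1.81 points ± 1.57 (SD, n = 6) for ENST peaks and -3.50 ± 3.06 for uc peaks, neither past the threshold (exact paired permutation test, p = 0.0625 for each, adjusted over 9 comparisons of classes 0.0703). The difference between ENST and uc peaks was 5.32 points ± 1.97, in 6 of 6 lists (exact paired permutation test, p = 0.0312, adjusted p = 0.0469). Ranked by score, which is set by the p-value of the peak, the median of non-NM minus that of NM peaks was -5.79 percentile points (exact paired permutation test, p = 0.0312). In that ranking 8.62% to 10.8% of non-NM peaks and 12.5% to 13.4% of NM peaks were at or above the most common top score of 3100.

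The 10 highest non-NM regions found in all 6 lists began with copies of a mitochondrial gene. MTRNR2L genes are nuclear genes that resemble the mitochondrial large ribosomal RNA gene, which encodes the peptide humanin. They are near-identical copies that can share reads with each other and with the mitochondrial RNA, so the gene to which a peak was assigned is uncertain. No gene encoded in the mitochondrial genome itself had a peak in the lists.

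MTRNR2L12 (ENST00000600213, chr3:96335981-96337000) had the highest fold enrichment of every list. Its fold was 8846, 8879 and 9405 in si-NC libraries 1, 2 and 3 and 6794, 6377 and 6636 in si-FTO, over the same 1020 bp. MTRNR2L2 (ENST00000604882, chr5:79945819-79946855) had a fold of 1809, 2419 and 2225 in si-NC against 2321, 2256 and 2312 in si-FTO. Both were at percentile 100 after rounding in all 6 lists. Folds are given per list and are not compared between lists.

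MTRNR2L6 (ENST00000604952, chr7:142374104-142375550) had a fold of 245, 221 and 257 in si-NC against 197, 195 and 204 in si-FTO, and it was at percentile 99.9 in each list. The pseudogene MTRNR2L11 (ENST00000604646, chr1:238107600-238108575) was far lower, at a fold of 19.7, 22.2 and 29.6 in si-NC against 7.99, 10.7 and 9.91 in si-FTO. Its percentile was 95.4, 96.4 and 98.4 in si-NC against 61.4, 79.5 and 74.2 in si-FTO, so its groups did not overlap, as was the case in this direction for 14.6% of all regions in the 6 lists. Of 12 MTRNR2L genes with peaks, these 4 were non-NM, with 24 peaks. The other members of the family were listed under RefSeq identifiers and had 39 peaks. Of these, MTRNR2L9 and MTRNR2L1 had folds of 2032 to 3074 and 1010 to 1415. MTRNR2L5 was at percentiles of 93.3, 96.4 and 96.6 in si-NC against 38.5, 84.4 and 65.4 in si-FTO. MTRNR2L4 was at 89.7, 89.8 and 95.0 in si-NC against 36.7 and 36.2 in si-FTO libraries 1 and 3. MTRNR2L3 was at 99.85, 99.81 and 99.87 in si-NC against 99.79, 99.70 and 99.78 in si-FTO. MTRNR2L10 was at 99.80, 99.70 and 99.83 in si-NC against 98.13, 98.24 and 98.43 in si-FTO. MTRNR2L7 was in the 3 si-NC lists alone, a pattern of 3.20% of all regions. MTRNR2L2 went the other way, at 99.98 in each si-NC list against 99.99 in each si-FTO list. Lower ranks in si-FTO were thus not particular to MTRNR2L11.

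The rest of the 10 had lower folds than MTRNR2L6 in each list. UPF2 (ENST00000356352, chr10:12077058-12077629), a factor of nonsense-mediated decay, had a fold of 122, 95.7 and 83.3 in si-NC against 155, 98.3 and 102 in si-FTO. The strongest peak of ZC3H13 (uc001vat.1, chr13:46549418-46549973), a subunit of the m6A writer complex, had a fold of 67.96, 61.0 and 71.2 in si-NC against 69.9, 71.9 and 130 in si-FTO. Within the lists UPF2 was at percentiles of 99.8 to 99.9 and this peak of ZC3H13 at 99.6 to 99.9. EIF3A, a translation initiation factor, had folds of 47.7 to 66.3 across the 6 lists, and SUPT5H, a transcription elongation factor, 45.0 to 65.1. GATAD2A, a subunit of the NuRD chromatin complex, ranged from 48.1 to 81.2, FAM32A from 40.9 to 64.5, and TPM4, an actin-binding tropomyosin, from 38.8 to 56.0. All 10 were at or above percentile 99.0 in every list, and 9 of them had the same start and end in all 6 lists, the exception being UPF2.

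**Figure D3:**
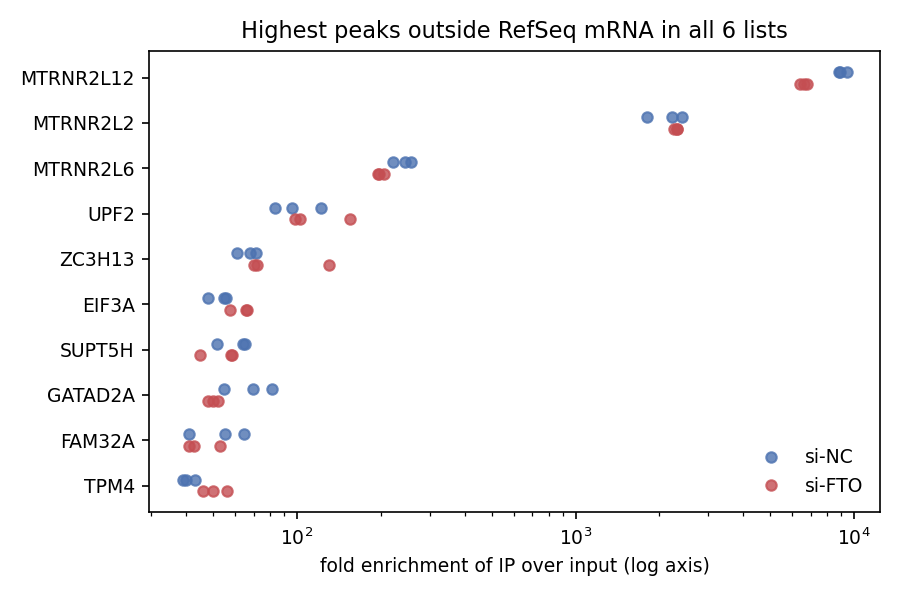
Fold enrichment of IP over input (x axis, log scale) of the 10 highest non-NM regions present in all 6 lists (y axis), with 1 point per library, si-NC in blue and si-FTO in red, on a scale that is not common to the lists. MTRNR2L12 sits at 6377 to 9405, MTRNR2L2 at 1809 to 2419, MTRNR2L6 at 195 to 257, and the other genes mostly under 100.

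The longest non-NM regions in all 6 lists reached many kilobases. The peak of ZNF469, a zinc finger gene on chromosome 16, had a median length of 12260.5 bp (12194 to 12942 bp), and that of ZNF646 was 8118 bp. ASXL2, a chromatin regulator, followed at 6441.5 bp, the centrosomal gene ALMS1 (uc002sjg.3) at 6105 bp and SON, a splicing cofactor, at 5916 bp. The intervals of ALMS1 and SON were identical in all lists. Strength varied between these regions. Percentiles were 38.6 to 79.4 for ZNF646, 43.0 to 72.4 for ALMS1, 73.3 to 80.1 for SON, 78.8 to 89.6 for ASXL2 and 78.0 to 94.5 for ZNF469.

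Non-NM regions recurred less often across the lists than NM regions. Peaks of all 6 lists were merged where they overlapped by at least 1 bp, which gave 12995 regions: 2389 with only non-NM peaks, 10530 with only NM peaks and 76 with both. All 6 lists held 730 of the 2389 non-NM regions (30.6%) and 3975 of the NM regions (37.7%), against 36.5% of all regions. A single list held 555 non-NM regions (23.2%) and 2010 NM regions (19.1%), against 19.7% of all regions. Counted by region, the share in all 6 lists was 30.5% for ENST (566 of 1856) and 30.5% for uc regions (162 of 531).

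Counted by peak, the share that lay in regions of all 6 lists was lower for non-NM than for NM peaks in every list. The difference was -5.69, -7.63 and -6.64 percentage points in si-NC libraries 1, 2 and 3 and -5.66, -6.96 and -5.52 points in si-FTO. The mean difference was -6.35 points ± 0.861 (SD, n = 6; exact paired permutation test, p = 0.0312, adjusted over 3 measures 0.0469). It was present for ENST peaks (-5.95 points ± 0.891) and for uc peaks (-7.70 points ± 1.43), each below 0 in 6 of 6 lists (exact paired permutation test, p = 0.0312, adjusted over 9 comparisons 0.0469). The share was higher for ENST than for uc peaks by 1.75 points ± 1.39 (SD, n = 6; 0.475 to 3.78, exact paired permutation test, p = 0.0312, adjusted p = 0.0469). Regions in all 6 lists are the same set for every list, so the differences of the 6 lists largely repeat each other. Their SDs and p-values therefore do not measure replication.

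Recurrence rose with strength in both classes, and the mean was lower for non-NM peaks at each level. Each list was divided into 4 equal bins of fold enrichment. In the lowest bin, 27.0% ± 2.93 (SD, n = 6) of non-NM peaks and 31.5% ± 2.26 of NM peaks lay in regions of all 6 lists. In the highest bin the shares were 77.2% ± 2.25 and 84.2% ± 2.67. Averaged within bins of fold enrichment the difference was -6.68 points, and within 4 bins of peak length it was -5.25 points (exact paired permutation test, p = 0.0312 for each, the latter chosen after seeing the data). These p-values also rest on the same regions in every list and do not measure replication. Among regions in all 6 lists, start and end were identical in every list for 402 of 730 non-NM regions (55.1%) and 2823 of 3975 NM regions (71.0%).

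**Figure D4:**
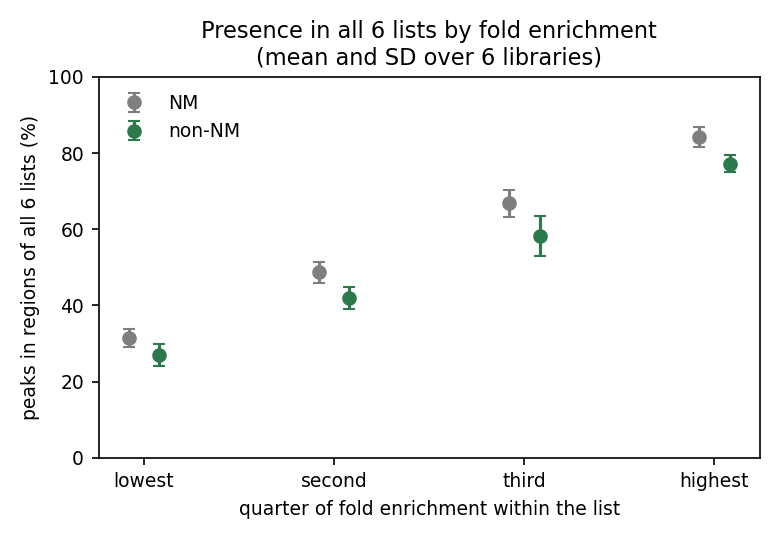
Share of peaks in regions of all 6 lists (y axis, percent) in 4 equal bins of fold enrichment within a list (x axis, lowest to highest), for NM peaks (grey) and non-NM peaks (green), as mean and SD over 6 libraries. Non-NM peaks are lower in every bin, from 27.0% against 31.5% in the lowest to 77.2% against 84.2% in the highest.

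Regions listed in 1 group alone were about as frequent among non-NM regions as among all regions. A peak in all 3 si-FTO lists and no si-NC list was found for 66 of 2389 non-NM regions (2.76%), against 2.92% of all regions. The opposite pattern was found for 84 non-NM regions (3.52%), against 3.20% of all regions. ENST regions gave 52 and 65 of 1856, and uc regions 14 and 19 of 531. The order of the counts turned with list length: with all lists shortened to the shortest by score, 73 regions were in si-FTO alone and 61 in si-NC alone. Without si-FTO library 1, 2 or 3 the si-FTO count was 102, 103 or 112, and without si-NC library 1 or 2 the si-NC count was 146 or 133. Leaving out a library loosens the rule, since fewer lists must hold or lack a peak, and larger counts then follow. The shares over all regions were not computed under these alternatives. No single region can be tested with 3 libraries against 3.

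Of the regions in si-FTO alone, AC026740.1 (ENST00000594226, chr5:668410-668839), a gene known by its clone name, ranked first with percentiles of 92.8, 97.2 and 91.2 and folds of 17.1, 24.3 and 15.6 in si-FTO libraries 1, 2 and 3. RRP1 (uc011aez.1), which acts in ribosome biogenesis, was at percentiles of 86.1, 90.3 and 89.1. TNFAIP2, a gene induced by tumor necrosis factor, was at 82.2, 86.0 and 88.4, and HOMER3, a scaffold protein gene, at 78.1, 94.5 and 94.7. The regions were ordered by their lowest percentile, so high values of these 4 in each si-FTO library follow from the choice. POGK had a long peak of 5536 bp with percentiles of 70.2 to 84.4. The others were ARFRP1, a small GTPase (65.9 to 88.6), OPTN, an autophagy receptor (63.7 to 69.7), KLHL42, a cullin adaptor (61.5 to 66.7), ARNTL, a circadian clock factor (59.6 to 77.4), and CASP6, a caspase (57.3 to 66.6).

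Of the regions in si-NC alone, NUTM2A (ENST00000381689, chr10:88994874-88996665) ranked first with percentiles of 95.3, 96.7 and 95.7 and folds of 19.7, 22.8 and 19.5 in si-NC libraries 1, 2 and 3. It belongs to a family of near-identical genes, so its assignment is uncertain. SEPT11 (ENST00000502584), a cytoskeletal septin, was at percentiles of 95.9, 92.0 and 95.4. MGEA5, the enzyme that removes O-GlcNAc from proteins, was at 87.5, 83.4 and 88.3. The receptor gene GPR135 was at 83.3 to 93.3 and the corepressor TLE1 at 76.3 to 79.6. GFPT2, an enzyme of the hexosamine pathway, was at 79.1, 75.02 and 79.1, and LOXL2, a collagen crosslinking enzyme, at 74.0 to 86.0. DNAJB5, a cochaperone, was at 70.3 to 76.5, MTG1, a mitochondrial GTPase, at 65.0 to 77.1, and LZTS2 at 60.1 to 71.2.

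**Figure D5:**
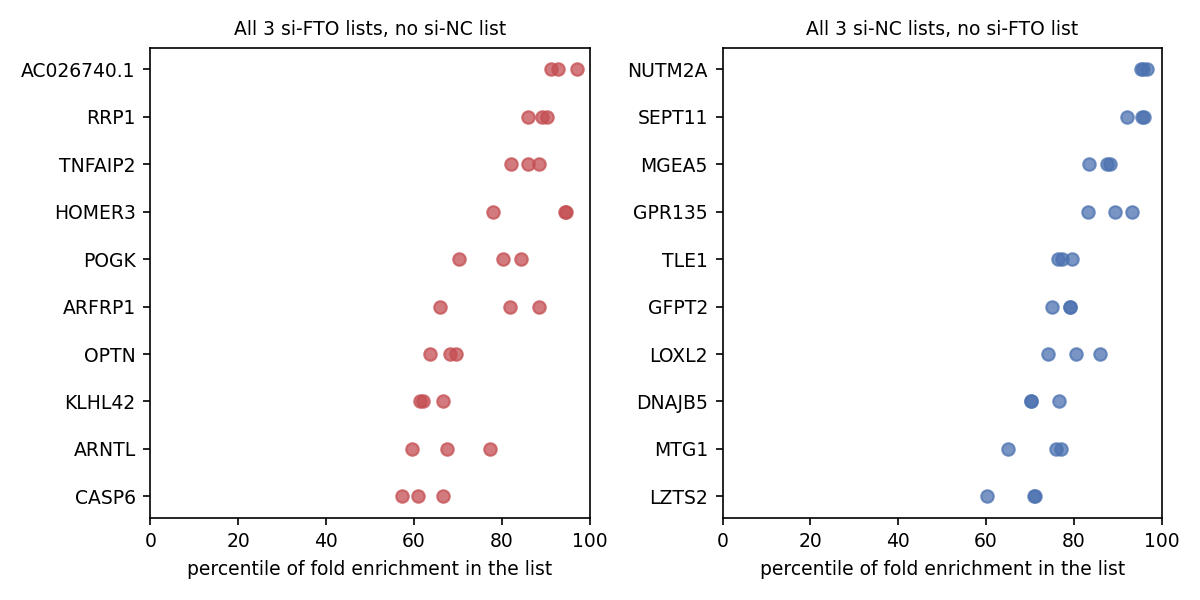
Percentile of fold enrichment within the list (x axis) of the 10 highest non-NM regions in all 3 si-FTO lists and no si-NC list (left, red) and in all 3 si-NC lists and no si-FTO list (right, blue), with 1 point per library. AC026740.1 (91.2 to 97.2) and NUTM2A (95.3 to 96.7) rank first, and the last of the 10 are CASP6 (57.3 to 66.6) and LZTS2 (60.1 to 71.2).

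Among the 76 regions where NM and non-NM peaks overlapped, 3 (3.95%, against 2.92% of all regions) were in si-FTO alone, namely CLUAP1, C17orf100 and MTUS1. In si-NC alone there were 7 (9.21%, against 3.20% of all regions), namely PSEN2, TMBIM6, SMUG1, ACACB, EPOR, NFKBID and PPARGC1B. These counts are small and were not tested. A region of both kinds needs more than 1 peak, and 0 of the 76 were in a single list, against 19.7% of all regions. The shares over all regions are therefore not a like comparison. In these regions overlapping peaks of different lists, or neighboring ones, were named by transcripts of different kinds. The 32 of them in all 6 lists included 0 with the same start and end in every list.

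Regions in all 6 lists were also compared by percentile between the groups. The percentile was higher in each si-FTO list than in any si-NC list for 145 of 730 non-NM regions (19.9%), against 16.9% of all such regions. It was lower in each si-FTO list for 104 (14.2%), against 14.6% of all such regions. The widest gaps were chosen after their values were seen. KIDINS220 (ENST00000459813, chr2:8887530-8888130), a membrane scaffold of neurotrophin signaling, was at percentiles of 31.4, 31.8 and 8.80 in si-NC against 67.8, 76.0 and 69.2 in si-FTO. FGD4, an exchange factor for CDC42, was at 57.9, 19.7 and 42.1 in si-NC against 88.5, 91.6 and 88.3 in si-FTO. PCM1, YLPM1 and GOLGA5 had gaps of 32.5, 31.9 and 31.0 points between the highest si-NC and the lowest si-FTO list.

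In the other direction, the pseudogene COX6A1P2 (ENST00000423336, chr6:37012607-37013177) was at percentiles of 80.5, 76.8 and 64.6 in si-NC against 29.5, 27.3 and 17.8 in si-FTO. CANT1, a calcium-activated nucleotidase, was at 92.7, 91.7 and 75.8 in si-NC against 37.0, 37.7 and 53.8 in si-FTO. S1PR3, a receptor for sphingosine 1-phosphate, had a peak of about the same rank in the 3 si-NC lists, 74.1, 75.1 and 78.1, and was at 47.7, 49.7 and 42.1 in si-FTO. GRIPAP1 and NLGN1 had gaps of 25.2 and 24.7 points. None of these regions can be tested singly, and the assignment of COX6A1P2 is uncertain, since it resembles its parent gene.

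Of the 15 m6A writer, eraser and reader genes with a peak, 4 had non-NM peaks, 51 against 99 NM peaks. Of these 4 genes, 2 also had an NM peak in at least 1 list, and the values below are of non-NM peaks alone. ZC3H13 was listed under uc identifiers alone, with 6, 6 and 6 peaks in si-NC against 5, 6 and 5 in si-FTO. Of its 6 stretches on chromosome 13, 5 were in all lists with unchanged ends. The sixth (chr13:46626539-46626881) had folds of 5.09, 5.55 and 6.73 in si-NC against 3.45 in si-FTO library 2, and was not listed in si-FTO libraries 1 and 3. RBM15, an adaptor of the writer complex, had an identical interval of 3368 bp (chr1:110881945-110885312) in all lists at percentiles of 39.4 to 71.8. YTHDC1, the nuclear reader, was at 73.8 to 86.4 in si-NC against 58.0 to 84.4 in si-FTO. WTAP, the regulatory subunit of the writer, had a weak non-NM peak in 5 lists and no non-NM peak in si-FTO library 1. It was at percentiles of 19.6 to 33.9 in si-NC against 48.2 and 48.8 in si-FTO libraries 2 and 3. None of the 4 genes had a non-NM region in 1 group alone.

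Genes with the most non-NM peaks were ZC3H13 and KAT6A, a histone acetyltransferase, with 34 each over the 6 lists. GOLGA5, a Golgi protein, had 27, FAM208B had 26, and SGK223 and CD163L1 had 23 each. None of these 6 genes had an NM peak, so their whole m6A pattern in the lists stood under non-NM identifiers.

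Genes known only by a clone name were all non-NM: 39 genes with 154 peaks. Of these genes, 13 were in all 6 lists, against 686 of all 2053 genes with a non-NM peak. RP11-93B14.6 on chromosome 20 had peaks at separate stretches: chr20:61274366-61274656 was at percentiles of 93.4, 96.2, 96.0 and 94.3 in si-NC libraries 1 and 3 and si-FTO libraries 2 and 3, and a neighboring stretch was at 98.1 in si-NC library 2 and 91.8 in si-FTO library 1. AL645728.1 on chromosome 1 was at percentiles of 91.0 to 95.2 in si-NC lists and 87.9 to 92.2 in si-FTO lists, which overlapped. RP11-166B2.1 (ENST00000399147, chr16:12021230-12021736) was at percentiles of 96.5, 95.2 and 98.3 in si-NC, and of 76.2, 87.9 and 76.3 in si-FTO. Its groups did not overlap, as was the case in this direction for 14.6% of all regions in the 6 lists. AC012414.1 kept an identical 681 bp at percentiles of 76.4 to 92.2. A further 37 genes were named by a GenBank accession, with 145 peaks and 9 genes in all 6 lists. Among the highest of these were AK055785 on chromosome 16 (percentiles of 85.8 to 95.9), L77588 on chromosome 17 (76.7 to 87.0), AK125701 on chromosome 16 (76.3 to 95.8) and BC032415 on chromosome 19 (59.0 to 73.1).

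Antisense and long noncoding names were few. Of 5 such genes with a peak, 4 had non-NM peaks, 17 in all, and the lists do not say whether strand was used to assign them, so each may share reads with the gene it overlaps. PAXIP1-AS2 (ENST00000397551) was at percentiles of 19.9, 18.7 and 7.61 in si-NC against 74.2, 77.3 and 35.7 in si-FTO, and CEBPZ-AS1 (ENST00000397064) at 38.5, 8.68 and 22.1 in si-NC against 72.6, 48.1 and 56.3 in si-FTO. For both the groups did not overlap, as was the case in this direction for 16.9% of all regions in the 6 lists. FMR1-AS1 had a peak in the 3 si-NC lists and si-FTO library 1, and SSBP3-AS1 in si-NC library 1.

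A list of families of similar genes was made by name and took in NBPF, NPIP, GOLGA, HLA and PCDH genes, among others. Of its 71 genes with a peak, 25 had non-NM peaks, and 30.3% of the peaks of the families (125 non-NM and 287 NM) were non-NM. Reads can be split between the copies, so these assignments are uncertain. GOLGA6L10, GOLGA6L18 and GOLGA6L19 on chromosome 15 were in all lists. GOLGA6L10 was at percentiles of 97.3, 96.7 and 93.8 in si-NC against 98.5, 96.9 and 96.5 in si-FTO, and GOLGA6L19 at 90.9, 86.5 and 95.4 in si-NC against 92.9, 80.1 and 88.5 in si-FTO, with overlapping groups for both. GOLGA6L18, with an identical 881 bp, was at 88.4, 86.9 and 90.6 in si-NC against 97.7, 95.4 and 95.1 in si-FTO, which did not overlap. The same held in this direction for 16.9% of all regions in the 6 lists. NPIPB11 had an identical 2936 bp at percentiles of 67.7 to 89.7.

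Zinc finger genes had 404 non-NM and 2213 NM peaks (15.4% non-NM), and the non-NM peaks came from 77 of 394 genes. Of these 77, 37 had a non-NM peak in all 6 lists, against 686 of all 2053 genes with a non-NM peak. ZNF608, ZNF691 and ZNF275 were at percentiles of 82.6 to 93.5, 70.4 to 87.4 and 70.3 to 89.0. Of 11 histone genes with a peak, 1 was non-NM: H2AFX, the histone variant phosphorylated at DNA breaks, with the same 1614 bp at percentiles of 91.6 to 94.8 in all lists. Of 6 read-through genes, 1 was non-NM, STON1-GTF2A1L, with a weak peak in 5 lists at percentiles of 2.51 to 30.8.

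The share of non-NM peaks varied between chromosomes. Over all lists together it was 13.7% on chromosome 5 and 14.1% on X, and 20.5% on chromosome 8 and 22.5% on chromosome 17. Chromosome Y had few peaks (12 of 108 were non-NM, 11.1%), and its share ran from 5% to 23.5% between lists. On chromosome 17 it was 21.7% to 23.5% in the 6 lists and on chromosome 5 it was 12.96% to 14.5%, so these ranges did not overlap. Peaks of 1 gene share a chromosome, and the shares were not tested.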

How the data were processed

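MeRIP-seq was performed on K1 cells, with 6 IP and 6 input libraries. Per the labels, 3 libraries of each kind belong to si-NC and 3 to si-FTO. The authors called peaks for each IP library against input. The peak identifiers name MACS, and no source used here gives its settings. The submitters' processing notes name CASAVA 1.8, BWA and hg19. The authors deposited, per peak, a score (−10 log10 of its p-value), a fold enrichment (a ratio of IP over input) and an FDR in percent. Read counts were not used, so the depth is unknown. The authors' gene name, transcript and annotation columns were used as listed. In each list 1 line was empty and was left out.

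Starts were converted to count from 1. Fold enrichment was ranked within each list. Peaks of the 6 lists that overlapped by 1 bp or more were merged into regions. Classes were compared within lists by two-sided exact paired permutation (sign flips) and groups by two-sided exact permutation over libraries, with Benjamini-Hochberg adjustment, in Python 3.11.15, pandas 2.3.3, numpy 2.4.6 and scipy 1.17.1. Same-gene comparisons and values under alternatives were not adjusted. The counting of regions was tested on simulated lists.

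Named genes were the 10 highest non-NM regions in all 6 lists and in each group alone, by the lowest within-list percentile, the 5 longest, up to 4 members of each gene list, and every member of a count of at most 5. Genes with the most peaks and the widest percentile gaps were chosen after values were seen, and comparisons of uc peaks, of peaks within bins of length and of peaks within a gene came later still, with the data in view. The members and lists were chosen with earlier results of these data known. Alternatives were leaving out each library, the upper 75 percent of fold enrichment, ENST or uc identifiers alone, means, score ranks, a reciprocal overlap of 50 percent, bins of strength or length, equal list length and a replicate block. Peak sequences, motifs and positions along transcripts were not analysed here.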

Additional observations from a re-analysis of the deposited data

How the results depend on the processing

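Of 98 values under alternatives, 70 kept their direction and their side of the threshold, or moved little. Comparisons of the groups could not reach the threshold under any setting, so for them only the direction could change. The count of 70 therefore does not measure stability. Leaving out each library gave a length difference of -97 to -106.6 bp and a recurrence difference of -5.92 to -7.14 points, each at p = 0.0625, the smallest an exact paired permutation test over 5 libraries allows. The lists share regions, so these values are not independent. With 1 library left out, the count of regions in si-FTO alone was 81 to 112, and that in si-NC alone was 104 to 146. The difference in the share of non-NM peaks was -0.185 to 0.0731 points with 1 library left out, and it turned to 0.0731 without si-NC library 2, 0.00715 without si-FTO library 1, 0.0699 without si-FTO library 3, 0.389 in the upper 75 percent of fold enrichment and 0.0339 for ENST peaks alone. The percentile difference turned to -5.79 by score, and the number of non-NM peaks to 13 more in si-FTO at equal list length (exact permutation test, p = 0.3). For uc peaks alone, added after seeing the data, the length difference was -17.8 bp, the percentile difference -3.50 points and the counts 14 and 19. The causes were not tested. By construction, fewer libraries raise the smallest p and loosen the rule for regions in 1 group alone, and fewer identifiers lower the counts.

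Libraries of the same number did not deviate together (correlations of 0.03, 0.07 and -0.06 over 4737 regions), so the numbers were not taken as pairs. With a replicate block the share, number, length and percentile differences between groups were unchanged at -0.0361, -76.7, 26.7 and 2.61, with exact permutation p of 1, 0.5, 0.25 and 0.25, where 0.25 is the smallest possible, and no call changed. The lists give no depth, so a region absent from a list cannot be told from one that was below detection, and groups were compared by the percentile of fold enrichment within a list.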
